A study of Homo sapiens with 16 samples.

Results

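A set of 10 genes of iron uptake, storage, export and heme turnover was named for description by symbol: TFRC, SLC11A2, SLC11A1, FTH1, FTL, SLC40A1, NCOA4, IREB2, FECH and HMOX1. They were found by matching the Ensembl gene IDs of the count table to symbols, a rule that uses no measured value, though the genes were chosen with earlier results of these data known. Of the 10, 9 matched a row among the 34618 gene IDs of the table, and NCOA4, the receptor that carries ferritin to the lysosome, is not analysed here. RNA of these genes was compared across 4 groups of 4 libraries each, 16 in all. They came from 2 established human lines used as models of acute myeloid leukaemia: KG1A, whose cells are immature and carry CD34, and U937, whose cells resemble early monocytes. Each line received either 10 µM NEL or only its solvent, DMSO. The labels neither spell NEL out nor give a treatment time; it is assumed here to be nelarabine, a guanosine analogue given in leukaemia, from memory of the published study and not from any file. All groups grew in RPMI medium with dialyzed serum, and each line stands for a single donor. Whether the libraries of a group stem from separate cultures is not in the labels, so every p-value covers the scatter of these libraries alone, possibly a technical one.

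Most cells take up iron bound to transferrin through the transferrin receptor TFRC, move it across the endosomal membrane with SLC11A2, store the surplus in ferritin, a shell of FTH1 and FTL chains, and release it through ferroportin, SLC40A1. Iron regulatory proteins, one of them encoded by IREB2, bind hairpins called iron-responsive elements in these mRNAs when iron is scarce, which blocks translation of ferritin and ferroportin and stabilises the TFRC mRNA. Ferrochelatase (FECH) places iron into heme, and heme oxygenase 1 (HMOX1) breaks heme down and frees the iron. Monocytes and macrophages are known for recycling iron, and they also hold SLC11A1, an iron and manganese pump of the phagosome.

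The iron-responsive elements are shown because they are the sequence that ties uptake, storage and export of iron to the same iron regulatory proteins. The letters searched were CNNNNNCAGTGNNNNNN, a C, a stem of 5 bases, a loop that begins CAGTG, and 5 bases able to pair with the stem. The search ran over whole GENCODE protein-coding transcripts on GRCh38, coding sequence included, on the transcript's own strand. The letters were present in 4 of the 10 genes at 7 sites, all in UTRs, and anywhere in the transcripts of 286 of 19702 coding genes, or 1.45%. A hairpin with an unpaired base in this stem, or with other loop letters, would not match. A gene may therefore carry elements that are not listed here. Each site below is 30 bases long, with the 6 bases of the loop in capitals, and a match of letters is a description, not a test of binding.
FTH1, 5′ UTR, chr11:61967573-61967602, minus strand: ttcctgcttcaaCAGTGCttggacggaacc
FTL, 5′ UTR, chr19:48965335-48965364, plus strand: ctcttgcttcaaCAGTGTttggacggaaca
SLC40A1, 5′ UTR, chr2:189580660-189580689, minus strand: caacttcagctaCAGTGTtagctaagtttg
TFRC, 3′ UTR, chr3:196050978-196051007, minus strand: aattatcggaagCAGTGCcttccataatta
TFRC, 3′ UTR, chr3:196050574-196050603, minus strand: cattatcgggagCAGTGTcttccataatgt
TFRC, 3′ UTR, chr3:196050509-196050538, minus strand: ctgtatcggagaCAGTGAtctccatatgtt
TFRC, 3′ UTR, chr3:196050462-196050491, minus strand: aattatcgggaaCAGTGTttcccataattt
The ferritin and ferroportin sites lay before the coding sequence and the 4 TFRC sites after it. The files give 1 count per gene, so the share of transcripts that carry a site was not measured.

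Total counts per library ran from 10641567 to 11777684. CD34 stood at 889 CPM (counts scaled to a common library total with the TMM factors of all 16 libraries) in KG1A with DMSO and at 0.333 CPM in U937. CD33 and CD38, from the same list of 5 immature myeloid markers, ran the other way. They held 0.256 and 4.85 CPM in KG1A with DMSO, and 89.65 and 22.2 CPM in U937 with DMSO. KIT and SPN were higher in KG1A. The 5 T lymphoid markers summed to 138 to 157 CPM in KG1A with DMSO and to 0.357 to 0.895 CPM in U937 with DMSO. The 8 monocytic markers summed to 2.38 to 3.88 CPM in KG1A with DMSO and 8.82 to 9.57 with NEL. In U937 they summed to 295 to 304 and 485 to 508 CPM, and CD4 and LYZ led and CD14 had 14 and 9 counts over the 4 libraries. Of 14 erythroid markers, 2 reached 1 CPM in each group, the hemoglobin genes HBA1, HBA2 and HBB were at 0 in all 16 libraries, and HEMGN made up most of the sum in KG1A, 121 to 134 CPM with DMSO and 176 to 183 CPM with NEL. Their part in the results below was not tested. Libraries 1 and 3 of each group stood apart from 2 and 4 in the data, with no label for it, so most NEL changes of the iron genes are also given within these sets, as 1 and 3 alone and then 2 and 4 alone. In bulk RNA, fewer cells of a kind and less RNA per cell cannot be told apart.

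TFRC (ENSG00000072274; GRCh37 chromosome 3, 195754054 to 195809060, minus strand) was lower with NEL in both lines, and further so in U937. The 4 KG1A libraries with DMSO held 244, 257, 256 and 252 CPM and those with NEL 186, 194, 190.1 and 190.6 CPM. In U937 the values were 279, 287, 284 and 284 CPM with DMSO and 121, 124, 126 and 122 CPM with NEL. No NEL library of either line reached any DMSO library, and the U937 libraries with NEL were the lowest of all 16. The log2 fold change was -0.41 ± 0.035 (SE, n = 4 against 4) in KG1A, with an edgeR adjusted p of 3.67e-07, and -1.20 ± 0.037 in U937, a 2.3-fold fall with an edgeR adjusted p of 8.27e-12. Each set of KG1A libraries gave -0.41 on its own, and the U937 sets gave -1.19 and -1.21. The fall in U937 was deeper by 0.80 on the log2 scale (difference -0.80 ± 0.046, edgeR adjusted p = 7.19e-12).

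The endosomal iron carrier SLC11A2, also called DMT1 (ENSG00000110911; chromosome 12, 51373184 to 51422349, minus strand), was higher in KG1A than in U937 and was not called for NEL in either line. Its mean was 52.6 ± 1.80 CPM (SD, n = 4) in KG1A with DMSO, 49.9 ± 3.10 with NEL, 38.9 ± 1.65 in U937 with DMSO and 41.1 ± 1.46 with NEL. The DMSO and NEL ranges overlapped in both lines. Its log2 fold changes were -0.083 in KG1A (edgeR adjusted p = 0.232) and 0.084 in U937 (0.176), and their difference of 0.16 had an edgeR adjusted p of 0.0898. The sets disagreed: libraries 2 and 4 alone gave calls in both lines, -0.18 in KG1A (edgeR adjusted p = 0.0176) and 0.17 in U937 (0.0439), where libraries 1 and 3 gave 0.02 (0.842) and -0.0006 (0.995). In all, 4 alternatives called the U937 change, at 0.14 to 0.17, among them upper quartile factors (0.14, edgeR adjusted p = 0.031). The call of the difference changed between settings, with adjusted p from 0.00264 to 0.928, and was made without KG1A NEL library 1 (0.19, edgeR adjusted p = 0.0409).

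The phagosomal pump SLC11A1 (ENSG00000018280; chromosome 2, 219246752 to 219261617, plus strand) was barely detected. KG1A libraries had 7, 5, 4 and 4 counts with DMSO, and 5, 6, 5 and 6 with NEL. The U937 libraries had 2, 7, 1 and 4 counts with DMSO, and 15, 13, 19 and 10 with NEL. Every U937 library with NEL was above every other library, and the other 3 groups overlapped. In U937 it passed the filter on low counts only through the NEL libraries, where it is high, so its fitted change is not used. The summed U937 counts, 14 and 57, gave a ratio of 4.20 with an exact 95% interval of 2.31 to 8.15, for counting error only. In KG1A the gene was under the filter, and sums of 20 and 22 counts gave a ratio of 1.11 (0.579 to 2.15).

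**Figure D1:**
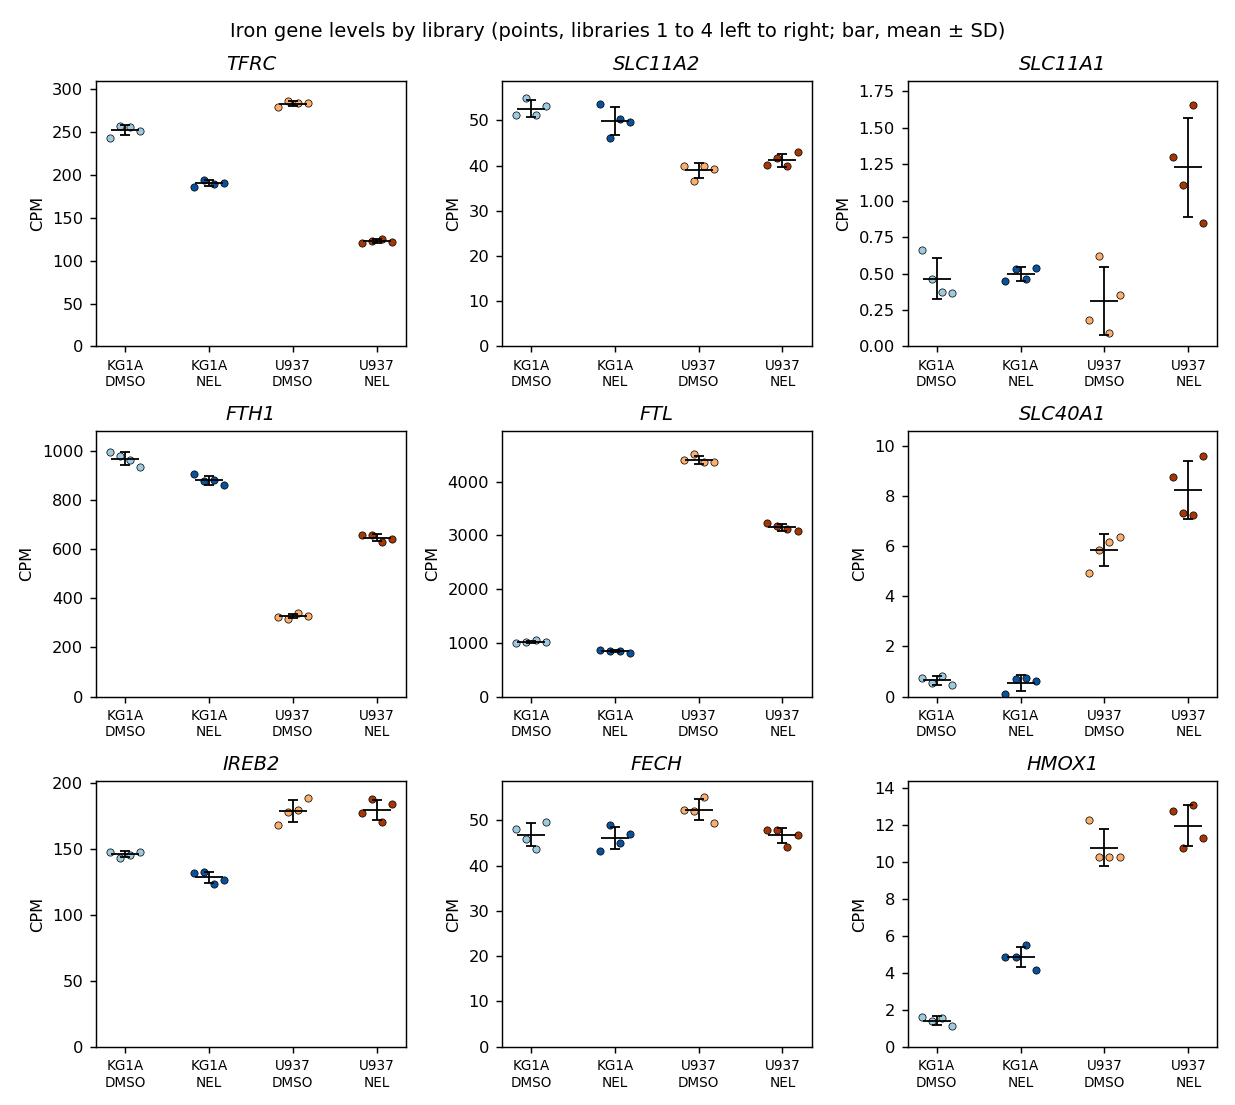
TMM-scaled CPM (y axis, from 0, a scale of its own for each gene) of the 9 iron genes in each of the 16 libraries, grouped by line and treatment on the x axis. Points are libraries 1 to 4 from left to right, and bars are the mean ± SD; FTH1 is lowest in U937 with DMSO (316 to 340 CPM), where FTL is highest (4360 to 4519 CPM).

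The 2 ferritin chains moved in the same direction in KG1A and in opposite directions in U937. FTH1 (ENSG00000167996; chromosome 11, 61727190 to 61735132, minus strand), the chain that oxidises iron, held 995, 979.9, 962 and 936 CPM in KG1A with DMSO and 906, 876, 880.0 and 861 CPM with NEL. In U937 it held 326, 316, 340.3 and 329 CPM with DMSO and 659, 656, 630.4 and 639.8 CPM with NEL. The groups did not overlap in either line, and every U937 library was below every KG1A library. FTH1 rose 1.98-fold in U937 (log2 0.98 ± 0.038, edgeR adjusted p = 7.14e-11; 0.95 and 1.01 within the sets). In KG1A it fell by 0.14 ± 0.036 on the log2 scale (edgeR adjusted p = 0.00445), a call that limma on the log2(RPKM + 0.5) scale did not make (-0.077, limma adjusted p = 0.134). The lines differed in this response by 1.12 ± 0.049 (edgeR adjusted p = 1.19e-13).

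FTL (ENSG00000087086; chromosome 19, 49468558 to 49470135, plus strand), the chain that helps iron form a mineral core, held 1004, 1009, 1046 and 1018 CPM in KG1A with DMSO and 867, 841, 848 and 819 CPM with NEL. In U937 it held 4400.4, 4519, 4360 and 4365 CPM with DMSO and 3227, 3179, 3117 and 3078 CPM with NEL. The 4 groups followed each other without overlap, both U937 groups above both KG1A groups and NEL below DMSO in each line. FTL fell by 0.28 ± 0.036 in KG1A (log2; edgeR adjusted p = 1.72e-05) and by 0.48 ± 0.038 in U937 (1.4-fold, edgeR adjusted p = 7.27e-08). The KG1A sets gave changes of -0.26 and -0.29, the U937 sets -0.47 and -0.50. The fall was deeper in U937 by a difference of -0.21 ± 0.047 (edgeR adjusted p = 0.000759).

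Compared per exon length, as RPKM (counts scaled by exon length and library total), FTL exceeded FTH1 in all 16 libraries. The FTL to FTH1 ratio was 2.44 ± 0.0932 (SD, n = 4) in KG1A with DMSO and 2.21 ± 0.0126 with NEL. In U937 it was 31.1 ± 1.45 with DMSO and 11.3 ± 0.135 with NEL, and no group overlapped another. FTL ranked between 6 and 19 among all genes by RPKM in the 4 groups, whereas FTH1 ranked 37 and 33 in KG1A, 171 in U937 with DMSO and 65 with NEL. The sum of both chains was 1607 RPKM and 1426 RPKM in KG1A, and 5000 RPKM and 4019 RPKM in U937, with DMSO and NEL respectively, so the summed chains were lower with NEL in both lines. The ratio of TFRC to FTH1, an uptake gene over a storage gene, was 0.0671 and 0.0556 in KG1A, and 0.223 with DMSO and 0.0490 with NEL in U937. Over FTL, the more abundant chain, the TFRC ratio ran the other way between the untreated lines, 0.0275 in KG1A and 0.00715 in U937, and was 0.0251 and 0.00434 with NEL.

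Both ferritin levels carry a limit of counting. FTH1 overlaps BEST1 (ENSG00000167995) on the opposite strand, and the strand setting of the count is not given in the sources used here; without strand, reads of the 2 genes cannot be told apart. BEST1 counts were 25.3% to 33.5% of the FTH1 counts in every library, and BEST1 rose in U937 with NEL by 0.98 ± 0.055 (log2; edgeR adjusted p = 2.43e-09), against 0.98 for FTH1; in KG1A its change of -0.070 was not called (edgeR adjusted p = 0.416). In addition, 41 ferritin pseudogene symbols in the reference names had 0 rows in the table, and how reads shared with such copies were counted is not given. The levels of FTH1 and FTL, and the ratio between them, are therefore uncertain. The part of these reads in the NEL changes and in the differences between the lines was not tested.

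**Figure D2:**
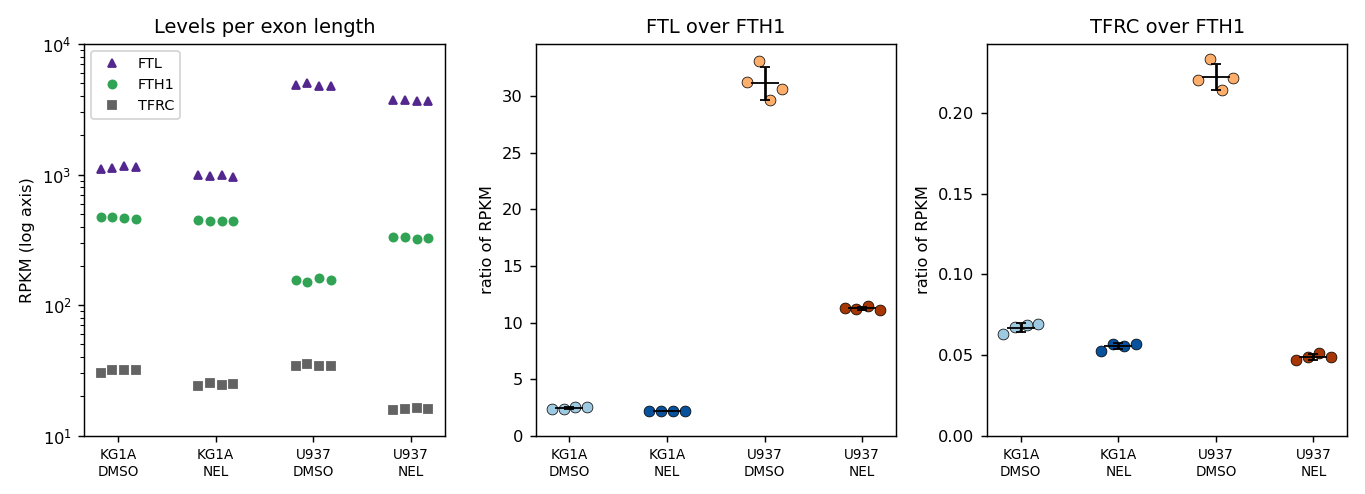
RPKM of FTL, FTH1 and TFRC by library (left, log axis), the FTL to FTH1 ratio (middle) and the TFRC to FTH1 ratio (right) by line and treatment, with points for libraries and bars for the mean ± SD. U937 with DMSO stands apart, with FTL to FTH1 ratios of 29.6 to 33.1, and U937 with NEL lies at 11.1 to 11.4.

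Ferroportin, SLC40A1 (ENSG00000138449; chromosome 2, 190425305 to 190448484, minus strand), the only known iron exporter of animal cells, was close to the detection limit in KG1A and low in U937. Counts were 8, 6, 9 and 5 in KG1A with DMSO and 1, 8, 8 and 7 with NEL. In U937 they were 55, 66, 69 and 72 with DMSO and 101, 86, 83 and 113 with NEL. The U937 groups did not overlap, while the KG1A groups did. SLC40A1 rose by 0.50 ± 0.129 in U937 (1.41-fold, edgeR adjusted p = 0.0033; 0.53 and 0.48 within the sets). In KG1A it was under the filter, and sums of 28 and 24 counts gave a ratio of 0.867 (exact 95% interval 0.481 to 1.55). The difference between the lines, 0.76, was not called (edgeR adjusted p = 0.179), and it rested on few counts. It was 1.46 within libraries 1 and 3 (edgeR adjusted p = 0.0469), which hold the KG1A NEL library with 1 count, and 0.079 within libraries 2 and 4 (0.994). Leaving out 1 library at a time gave 0.41 to 0.93, and limma on log2(RPKM + 0.5) gave 0.50 (limma adjusted p = 0.00526).

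IREB2 (ENSG00000136381; chromosome 15, 78729773 to 78793798, plus strand), which encodes iron regulatory protein 2, stood at 146 ± 2.04 CPM (SD, n = 4) in KG1A with DMSO and 128 ± 4.11 with NEL, without overlap. In U937 it stood at 178 ± 8.19 and 179 ± 7.65 CPM, and these ranges overlapped. It fell by 0.19 ± 0.037 in KG1A (log2; edgeR adjusted p = 0.000664; -0.21 and -0.17 within the sets) and was not called in U937 (0.013, edgeR adjusted p = 0.811). The difference between the lines was 0.20 ± 0.058 (edgeR adjusted p = 0.00766). The protein is controlled by its breakdown, so its mRNA is no measure of its activity.

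Of the heme genes, HMOX1 was called in KG1A and FECH, with a small change, in U937. HMOX1 (ENSG00000100292; chromosome 22, 35776354 to 35790207, plus strand) held 1.61, 1.39, 1.58 and 1.10 CPM in KG1A with DMSO and 4.87, 4.85, 5.52 and 4.15 CPM with NEL. In U937 it held 12.3, 10.3, 10.3 and 10.3 CPM with DMSO and 12.7, 10.7, 13.1 and 11.3 CPM with NEL. The KG1A groups were apart, the U937 groups overlapped, and every U937 library was above every KG1A library. HMOX1 rose 3.39-fold in KG1A (log2 1.76 ± 0.178, edgeR adjusted p = 2.09e-06; 1.69 and 1.84 within the sets). The change in U937 was 0.15 ± 0.099 (edgeR adjusted p = 0.184), a gene that limma on log2(RPKM + 0.5) did call (0.22, limma adjusted p = 0.0353). The response differed between the lines by -1.62 ± 0.20 (edgeR adjusted p = 7.52e-07). The rise in KG1A started from 61 counts over 4 libraries and reached 215, and its NEL libraries were all below the DMSO libraries of U937.

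FECH (ENSG00000066926; chromosome 18, 55215515 to 55254004, minus strand) had means between 46.1 and 52.3 CPM in the 4 groups, and each group overlapped its neighbour in the order of means, though DMSO and NEL did not overlap in U937. It fell by 0.16 ± 0.052 in U937 (log2; edgeR adjusted p = 0.013). The call was lost with upper quartile factors (-0.10, edgeR adjusted p = 0.0968), with limma on log2(RPKM + 0.5) (-0.067, limma adjusted p = 0.225) and within libraries 2 and 4 (-0.095, edgeR adjusted p = 0.214). In KG1A the change was -0.030 (edgeR adjusted p = 0.694), and the difference between the lines was -0.14 (edgeR adjusted p = 0.138).

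Counted together, 5 of the 7 iron genes that passed the filter in KG1A were called at an edgeR adjusted p under 0.05, where 47.2% of all 14250 tested genes were. HMOX1 was higher and TFRC, FTH1, FTL and IREB2 were lower, against 23.6% of all genes in each direction. The DMSO and NEL libraries did not overlap for these 5, as for 42.4% of all genes. In U937 the fit called 6 of 9 against 69.3% of 14390 genes; leaving out SLC11A1, which entered through the NEL libraries, it called 5 of 8, FTH1 and SLC40A1 higher and TFRC, FTL and FECH lower. Of all genes 34.6% were higher and 34.7% lower. The DMSO and NEL libraries did not overlap for these 5, as for 62.4% of all genes. The difference between the lines was called for 5 of 8, TFRC, FTH1, FTL, IREB2 and HMOX1, against 47.4% of 16117 genes (21.1% higher and 26.3% lower in U937). These shares are near those of all genes in U937, and in the other comparisons the number of members is too small to read them as apart. TFRC and FTL were called lower in both lines.

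**Figure D3:**
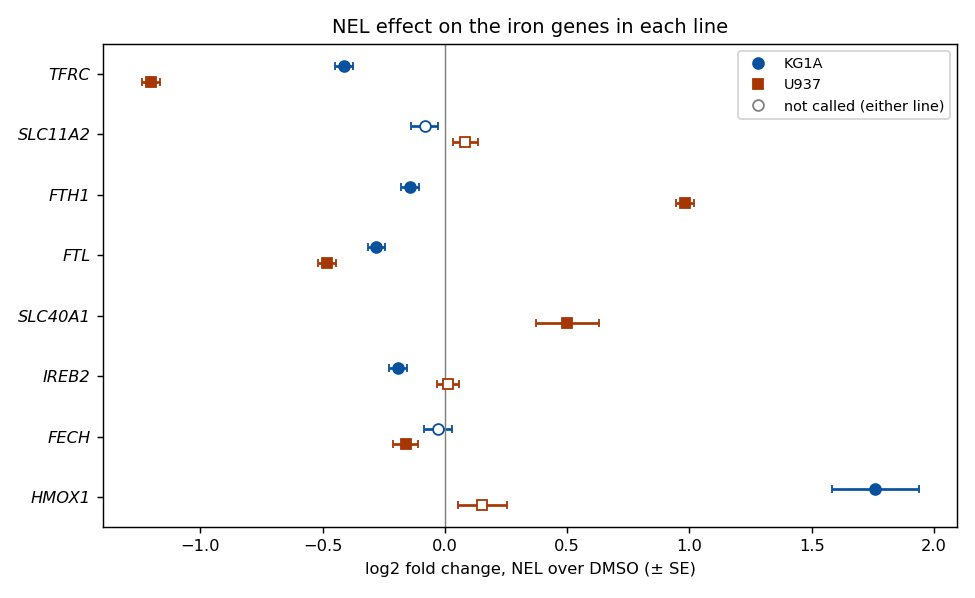
Log2 fold change of NEL over DMSO (x axis, ± SE from edgeR) for 8 iron genes, in KG1A (circles) and U937 (squares), with open symbols for changes not called; SLC40A1 was under the filter in KG1A, and SLC11A1 is left out. FTH1 lies at -0.14 in KG1A and 0.98 in U937, and HMOX1 at 1.76 and 0.15.

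Without NEL, the lines differed in 7 of 8 tested iron genes, where 86.4% of 15181 genes differed, 43.0% higher and 43.4% lower in U937. The ranges of the lines did not overlap for the 7, as for 81.5% of all genes. U937 held more FTL (4.08-fold, log2 2.03 ± 0.042, edgeR adjusted p = 5.38e-17), and more HMOX1 (7.13-fold, log2 2.83 ± 0.155, edgeR adjusted p = 2.13e-11). SLC40A1 passed the filter here only through U937, where it is high; its sums of 28 counts in KG1A and 262 in U937 gave a ratio of 8.80 (exact 95% interval 5.95 to 13.5), and without it 6 of 7 were called. U937 held 3.13-fold less FTH1 (-1.65 ± 0.041, edgeR adjusted p = 5.63e-16) and less SLC11A2 (-0.52 ± 0.054, edgeR adjusted p = 1.11e-07). BEST1, which overlaps FTH1, was also lower in U937 (log2 -1.52 ± 0.061, edgeR adjusted p = 2.87e-13). IREB2 was slightly higher (0.21 ± 0.042, edgeR adjusted p = 0.000251), and FECH was not called (0.075, edgeR adjusted p = 0.227), though one model of all 16 libraries did call it (0.16, edgeR adjusted p = 0.00917). TFRC was called higher by 0.085 ± 0.038 (edgeR adjusted p = 0.0455). That call was lost in 11 alternatives (log2 0.066 to 0.093) and kept in 11. Among the losses were the fits without KG1A library 1, 2, 3 or 4 or U937 library 2 (edgeR adjusted p from 0.0639 to 0.147). Others were DESeq2 and the fit within libraries 2 and 4 (edgeR adjusted p = 0.0876). SLC11A1, under the filter, had sums of 20 counts in KG1A and 14 in U937, a ratio of 0.659 (exact 95% interval 0.308 to 1.37).

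Other genes of iron and heme biology were drawn from 6 lists of 107 genes in all, none of them among the 10. In KG1A 22 of 79 tested were higher and 15 lower, 46.8% in all, with a median log2 fold change of 0.029 beside -0.004 for all genes. In U937 29 of 86 were higher and 36 lower, 75.6%, with a median of -0.064 beside -0.004. The U937 counts include GDF15, which passed the filter there only through the NEL libraries, and HP, which was close to the minimum count with DMSO. The KG1A counts include SLC46A1, which passed the filter there only through the DMSO libraries. Both shares lie near those of all genes, of which 23.6% were higher and 23.6% lower in KG1A, and 34.6% higher and 34.7% lower in U937. The counts of each list are to be read against these shares.

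Of the uptake and trafficking genes, 4 of 13 tested were higher and 1 lower in KG1A, and 2 of 12 higher and 8 lower in U937, with medians of -0.055 and -0.30. CYBRD1, a ferric reductase, rose in KG1A from 30.1 ± 2.44 to 47.9 ± 1.65 CPM (SD, n = 4; log2 0.66, edgeR adjusted p = 1e-06) and in U937 from 67.2 to 101 CPM (0.59, edgeR adjusted p = 4.84e-08). SLC39A8, a metal importer, rose in KG1A from 162 ± 6.76 to 206 ± 10.4 CPM (0.34) and was not called in U937 (-0.018). In U937 STEAP3, the endosomal reductase of the transferrin cycle, fell from 109 ± 5.87 to 57.2 ± 3.51 CPM (-0.93, edgeR adjusted p = 3.78e-09). SLC39A14, an importer of iron not bound to transferrin, fell from 158 ± 7.78 to 84.6 ± 5.53 CPM (-0.90). The difference between the lines was called for STEAP3 (-0.88 ± 0.075, edgeR adjusted p = 3.88e-09) and SLC39A14 (-1.05 ± 0.081, edgeR adjusted p = 7.45e-10).

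Of the export and regulation genes, 1 of 9 was higher and 4 lower in KG1A, and 8 of 11 were higher and 2 lower in U937 (all genes: 23.6% each way, and 34.6% and 34.7%), with medians of -0.092 and 0.26. Of the 8, GDF15 passed the filter in U937 only through the NEL libraries, at 0.134 CPM with DMSO and 2.11 with NEL. Its call is therefore not read as a change, though it is in the count and the median. ERFE, the hormone erythroferrone that acts on hepcidin, rose in both lines, from 8.72 ± 1.51 to 16.5 ± 1.496 CPM in KG1A (log2 0.92) and from 11.0 ± 1.67 to 20.4 ± 0.736 CPM in U937 (0.89). CUL1, a scaffold of the ubiquitin ligase that removes iron regulatory protein 2, fell by 0.32 in KG1A and by 0.43 in U937 (edgeR adjusted p = 7.71e-06). SKP1, another subunit, fell by 0.28 in U937 (edgeR adjusted p = 0.000209). FBXL5, the iron-sensing subunit of that ligase, fell by 0.16 in KG1A (edgeR adjusted p = 0.0123) and rose by 0.35 in U937 (edgeR adjusted p = 0.000227); it and SKP1 were chosen for mention after their values were seen. NEO1, a receptor in the hepcidin pathway, rose in U937 from 9.35 ± 0.427 to 16.8 ± 0.691 CPM (0.84).

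Of the heme synthesis genes, 6 of 13 were higher and 3 lower in KG1A, and 5 of 14 higher and 4 lower in U937. ABCB10, a mitochondrial transporter needed for hemoglobin assembly, rose in both lines, by 0.42 and 0.59 on the log2 scale. UROD, a decarboxylase of the pathway, rose by 0.41 in KG1A and was not called in U937 (-0.042), and ALAD, its dehydratase, rose by 0.53 in U937 and fell by 0.17 in KG1A (edgeR adjusted p = 0.0186). ALAS2, the erythroid first enzyme, had at most 22 counts in any group of 4 libraries.

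Of the genes of heme transport, breakdown and sensing, 7 of 15 were higher and 1 lower in KG1A, and 7 of 17 were higher and 7 lower in U937. The 1 lower in KG1A, SLC46A1, passed the filter only through the DMSO libraries, at 2.81 CPM with DMSO and 0.943 with NEL. HP, among the higher in U937, was close to the minimum count with DMSO, at 0.890 CPM, and held 1.63 CPM with NEL, with overlap. These 2 calls are in the counts but are not read as changes. BLVRA, the biliverdin reductase that acts after heme oxygenase, rose in KG1A from 6.97 ± 0.542 to 11.5 ± 1.38 CPM (log2 0.72, edgeR adjusted p = 0.000106). It also rose in U937, where HMOX1 was not called, from 40.6 to 56.9 CPM (0.49, edgeR adjusted p = 0.000114), and the difference between the lines was not called (edgeR adjusted p = 0.211). KEAP1, the repressor of NRF2, rose by 0.26 in KG1A and fell by 0.26 in U937 (edgeR adjusted p = 0.000485). In U937 HMOX2, the constitutive heme oxygenase, fell from 53.6 ± 3.49 to 29.4 ± 2.81 CPM (-0.86), while in KG1A it rose by 0.29 (edgeR adjusted p = 0.00151). MAFK, a small Maf partner of NRF2 and BACH1, fell in U937 from 33.4 ± 2.87 to 11.8 ± 0.858 CPM (-1.49, edgeR adjusted p = 2.35e-09) and was not called in KG1A (-0.18).

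Of the mitochondrial iron and iron-sulfur cluster genes, 2 of 26 were higher and 6 lower in KG1A, and 2 of 26 higher and 15 lower in U937 (all genes: 23.6% each way, and 34.6% and 34.7%), with medians of 0.017 and -0.26. GLRX5, a glutaredoxin of cluster assembly, fell in U937 from 74.6 ± 2.72 to 46.8 ± 2.65 CPM (log2 -0.67), whereas SLC25A37 (mitoferrin), which imports iron into mitochondria, rose from 162 ± 9.92 to 275 ± 11.2 CPM (0.77, edgeR adjusted p = 9.36e-09). Neither was called in KG1A (-0.070 and -0.016). LYRM4, a partner of the cysteine desulfurase, fell by 0.54 in KG1A and by 0.30 in U937, and NDOR1, a reductase of cytosolic cluster assembly, rose by 0.82 in KG1A and fell by 0.27 in U937 (edgeR adjusted p = 0.0181). The phagocyte's heme and iron enzymes were higher where called, 2 of 3 in KG1A (CAT, catalase, 0.41, and CYBA, 0.54) and 5 of 6 in U937, among them the oxidase subunits CYBB (4.00 ± 0.536 to 17.5 ± 0.434 CPM, log2 2.13) and NCF1 (1.95). NCF1 has near-identical copies, so its counts are uncertain.

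**Figure D4:**
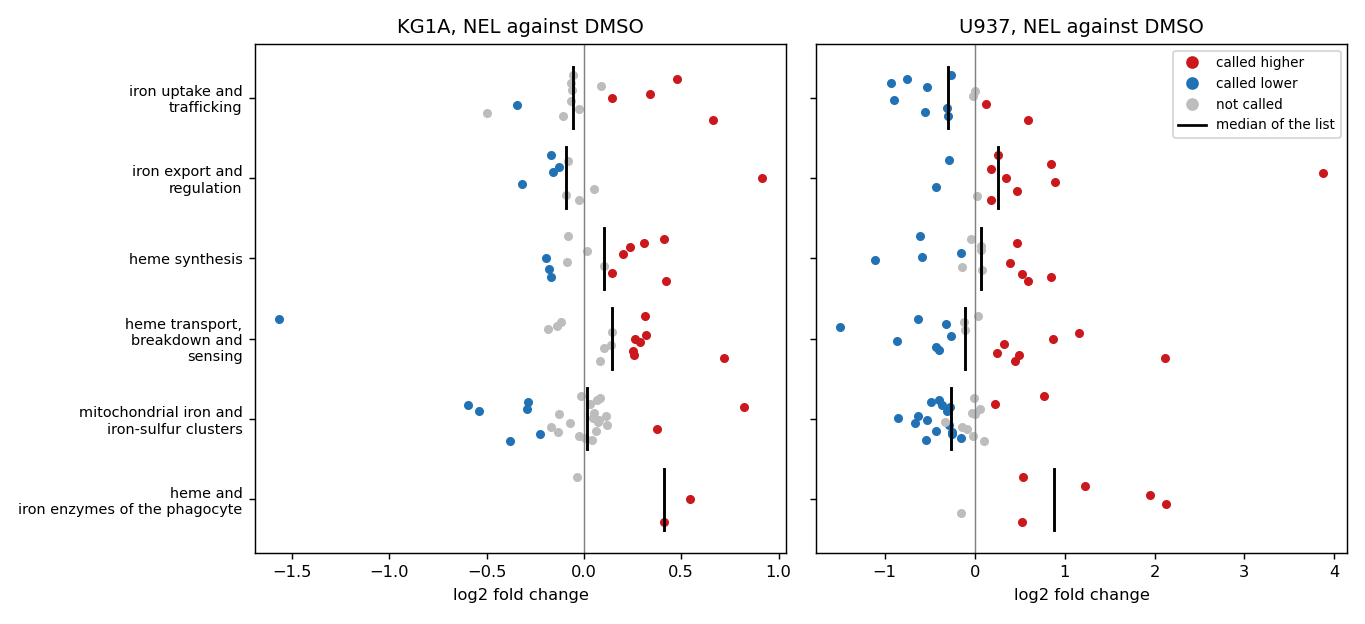
Log2 fold change of NEL over DMSO (x axis) for each tested gene of the 6 lists (rows) in KG1A (left) and U937 (right), with filled colours for edgeR calls, grey for genes not called and a bar at each list's median. In U937 the medians of the uptake list (-0.30) and of the iron-sulfur list (-0.26) lie below 0 and that of the export and regulation list (0.26) above it. The export and regulation list includes GDF15, which passed the filter in U937 only through the NEL libraries.

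Genes whose level ran most like that of a member were ranked over the 16 libraries by the root mean square difference of centred log2(CPM + 0.5), among 10562 genes. Closest to TFRC were PRMT1 (0.092), SEH1L (0.099) and TRA2B (0.11), with PRMT1 at 202, 162, 254 and 114 CPM in KG1A DMSO, KG1A NEL, U937 DMSO and U937 NEL. Closest to FTH1 were HLA-E (0.051), SNX10 (0.084) and HACE1 (0.088), and HLA-E held 389, 360.1, 130 and 271 CPM in the same order. Closest to FTL were COPS6 (0.062), MFSD1 (0.12) and GRAMD4 (0.12). HMOX1 had looser neighbours, SHANK1 (0.21), NKG7 (0.22) and MARCKSL1 (0.22). The libraries fall into 4 groups, so these values mostly describe the order of 4 means.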

How the data were processed

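RNA was sequenced from 16 libraries. Per the labels' protocols, Trizol and spin columns gave the RNA, and a stranded polyA kit the libraries. TopHat2, HTSeq 0.11.2 and bcl2fastq 2.18.0.12, with hg19 (GRCh37), are named per the submitters' processing notes; for annotation and strand setting, nothing is given in the sources used here. Deposited by the authors were raw counts per gene and RPKM values of the same libraries, used here for levels per length and for alternatives. The 10 members and the gene lists were chosen with earlier results of these data known.

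Of 34618 gene IDs, 32562 matched a symbol; the others held 0.878% of the counts. The test on the counts was edgeR 4.0.16 (quasi-likelihood, TMM, minimum count 10, minimum total 15) in R 4.3.3, with Benjamini-Hochberg adjustment over all tested genes and calls at an adjusted p under 0.05. Each line was fitted on its own 8 libraries, as was the comparison of the DMSO libraries, and the difference between the lines was the interaction over 16. Printed CPM values use the TMM factors of the 16-library fit, so a ratio of CPM means differs slightly from a fitted fold change. An SE is the log2 fold change divided by the square root of F. Intervals for sums of counts are exact, at 95%, and cover counting error only.

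All 10 members, the 2 called genes of smallest p per list and line, and the 3 nearest profiles of TFRC, FTH1, FTL and HMOX1 were named by rule. Marker lists were immature myeloid, monocytic, erythroid, T lymphoid, B lymphoid, epithelial, hepatocyte and fibroblast; single values of some markers are not reported here. Iron-responsive element letters were searched in GENCODE transcripts on GRCh38. Same-numbered libraries deviated together from their group means in all 12 pairs (Pearson r 0.161 to 0.254), but 1 with 3 and 2 with 4 did so as strongly (0.151 to 0.271), so the data show library sets and do not single out pairs; the replicate number was tried as a block. No 2 libraries of a group agreed within sampling noise (chi-square per degree of freedom 1.26 to 8.47 over 24 pairs). Alternatives were DESeq2 1.42.0 or its size factors, upper quartile factors, no filter or 1 CPM in 4 libraries, limma 3.58.1 on log2(RPKM + 0.5) or log2(RPKM + 0.1), an adjusted p under 0.01, the block, the library sets alone, sums of libraries 1 and 2 and of 3 and 4, one model of all libraries, and each library left out. The library set as a covariate was added after seeing the data. Code was tested on simulated data.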

Additional observations from a re-analysis of the deposited data

Results flagged for a closer look

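The response to NEL differed between the lines, by the interaction test of edgeR, for 5 iron genes. The difference, U937 minus KG1A on the log2 scale, was -0.80 for TFRC, 1.12 for FTH1, -0.21 for FTL, 0.20 for IREB2 and -1.62 for HMOX1.

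In 2 of 36 gene and group combinations, 1 of the 4 libraries lay far from the others by Dixon's ratio of gap to range, above its 95% critical value. Chance gives about 1 in 20. SLC40A1 in KG1A with NEL had a ratio of 0.838, from library 1 at 0.0902 CPM, which is 1 count. HMOX1 in U937 with DMSO had a ratio of 0.998, from library 1 at 12.3 CPM.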

How the results depend on the processing

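Counts here include SLC11A1 in U937 and SLC40A1 between the lines. In no comparison did the number of called iron genes, or of all called genes, move by more than 1.5 times under the alternatives run. With the replicate number as a block, 5, 6, 5 and 7 iron genes were called (KG1A, U937, difference of the lines, lines with DMSO), the same numbers as without it; the block changed no call of an iron gene, and all called genes came to 8346, 10871, 8803 and 13477. Leaving out each library in turn gave 5, 6, 5 to 7, and 6 to 7 iron genes. Of all genes called in KG1A, 3367 were higher and 3362 lower, against 4106 and 2263 with limma on log2(RPKM + 0.5), a scaling that moved the median of all genes by 0.063. Scaling moved that median by at most 0.09 in any comparison, so small calls can depend on the scaling. Larger calls were lost too with limma on log2(RPKM + 0.5), FTH1 in KG1A (-0.14 with edgeR) and FECH in U937 (-0.16 with edgeR). Values that changed sign were near 0 and not called. SLC11A2 within libraries 1 and 3 gave 0.020 in KG1A, -0.0006 in U937 and -0.024 for the difference. FECH in KG1A gave 0.034 and 0.035 with limma on log2(RPKM + 0.5) and log2(RPKM + 0.1), 0.0028 within libraries 2 and 4, and -0.064 to 0.0008 with a library left out, and between the DMSO lines -0.0003 within libraries 2 and 4. IREB2 in U937 gave -0.0069 with no filter, -0.0029 within libraries 1 and 3, and -0.020 to 0.039 with a library left out. The cause was not tested. Depth limits SLC11A1 and SLC40A1, under 10 counts in every KG1A library.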
